A study of Rattus norvegicus with 6 samples.

Results

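The osteoclast and RANKL genes examined here were Acp5, Ctsk, Calcr, Tnfsf11, Tnfrsf11a, Tnfrsf11b, Nfatc1, Oscar, Atp6v0d2 and Dcstamp, measured in arthritic synovial tissue of rats given triptolide or saline. Members were the probes, other than controls, whose gene name on the array equalled 1 of these 10 symbols, whatever their signal. This gave 8 probes for 7 of the 10 genes, out of 41012 probes and 16543 genes with a settled symbol. Calcr had 2 probes and each of the others 1. No probe carried the name of Tnfrsf11a, Nfatc1 or Oscar, so the receptor RANK and the transcription factor NFATc1 were not analysed here.

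All 6 samples came from male rats of 8 weeks in which 0.1 ml of Freund's complete adjuvant had been injected into the peritoneum daily for 18 days to induce arthritis. The 3 arthritis samples were from rats given saline, and the 3 triptolide samples from rats given triptolide at 0.4 mg/kg, each daily for 14 days. Triptolide is a diterpenoid from the vine Tripterygium wilfordii. Synovial tissue was taken from the ankle joints of the hind legs, and 0.5 ug of its RNA was labelled with Cy3 for an array of 1 colour. Both groups were arthritic and no healthy group was analysed here. Whether the numbered replicates are different rats is not stated in the labels. The p-values therefore reflect only how far these samples differ among themselves, and that spread may be technical.

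Osteoclasts are large cells with several nuclei that form by fusion of macrophage precursors and dissolve bone. The ligand RANKL, encoded by Tnfsf11, binds the receptor RANK on the precursor, and signalling through TRAF6, NF-kB and c-Fos induces NFATc1, which with MITF and PU.1 drives the genes of the resorbing cell. Osteoprotegerin, encoded by Tnfrsf11b, is a soluble decoy receptor that binds RANKL and keeps it from RANK. In inflamed joints, RANKL is made by synovial fibroblasts and T cells, and osteoclasts erode the bone that the synovium meets. Acp5 and Ctsk are not restricted to osteoclasts, since macrophages make the former and synovial fibroblasts can make the latter.

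The probes read by the array are stretches of 60 bases. Those of RANKL, of the fusion genes and of the calcitonin receptor variant are shown because they fix which transcript each value below counts. They are written in lower case, 5' to 3'. Per the file headers the build is rn4, and they lie at chr15:59397839-59397898 (minus strand) for Tnfsf11, chr5:34476269-34476328 (minus strand) for Atp6v0d2 and chr7:75335293-75335352 (plus strand) for Dcstamp. The first Calcr probe is listed at chr4:28496525-28505474 (minus strand), an interval of 8950 bases for a probe of 60, and it is annotated to a single transcript variant (1b). Whether a probe lies in coding sequence or in a UTR was not analysed here.
Tnfsf11: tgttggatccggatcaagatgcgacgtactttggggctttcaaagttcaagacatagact
Atp6v0d2: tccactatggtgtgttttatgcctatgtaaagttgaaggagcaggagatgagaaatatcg
Dcstamp: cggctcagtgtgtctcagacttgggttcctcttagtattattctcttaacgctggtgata
Calcr, variant 1b: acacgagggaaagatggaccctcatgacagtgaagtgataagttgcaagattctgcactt

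The remaining probes were at chr2:190405601-190405660 (plus strand) for Ctsk, chr7:90606882-90606941 (minus strand) for Tnfrsf11b and chr4:28486365-28486424 (minus strand) for the second Calcr probe, which is annotated to both variants. The Acp5 probe has no position in the files.

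Promoters of 2 resorption genes are shown because both hold the same short motif. They run from 250 bases before to 50 bases after the start of the gene, from RefSeq on build GRCr8, at chr2:185747298-185747597 (plus strand) for Ctsk and chr8:28943880-28944179 (minus strand) for the second of 2 Acp5 starts. Capitals mark matches, on either strand, to the M-box read by MITF (CACATGA or TCATGTG), the NFAT core (GGAAA or TTTCC), the AP-1 site (TGANTCA) and a PU.1 motif (GAGGAA or TTCCTC).
Ctsk: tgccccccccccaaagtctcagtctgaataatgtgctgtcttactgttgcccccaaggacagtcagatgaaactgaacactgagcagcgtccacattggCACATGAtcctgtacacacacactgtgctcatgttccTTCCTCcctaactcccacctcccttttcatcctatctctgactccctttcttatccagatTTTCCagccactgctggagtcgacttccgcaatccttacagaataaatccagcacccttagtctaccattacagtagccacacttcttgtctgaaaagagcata
Acp5: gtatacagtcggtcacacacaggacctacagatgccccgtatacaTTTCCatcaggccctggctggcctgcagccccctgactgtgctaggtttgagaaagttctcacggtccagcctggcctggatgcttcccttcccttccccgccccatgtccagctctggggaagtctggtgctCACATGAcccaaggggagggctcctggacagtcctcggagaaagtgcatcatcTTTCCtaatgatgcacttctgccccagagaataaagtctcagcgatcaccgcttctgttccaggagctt
The M-box begins at -151 in Ctsk and at -72 in Acp5, counted from the gene start. Of all 33469 rat promoters of this length in the table, 3.56% held an M-box, against 62.7% with an NFAT core, 27.6% with a PU.1 motif and 7.33% with an AP-1 site. Ctsk also holds 1 NFAT core at -54 and 1 PU.1 motif at -114, and this Acp5 promoter 2 NFAT cores, at -205 and -19. The promoter at the first Acp5 start and that of Calcr hold 0 of the 4 motifs. That of Tnfsf11 holds 1 PU.1 motif, and that of Oscar 3 NFAT cores and 1 PU.1 motif, of which an NFAT core and the PU.1 motif overlap. Promoters of 5 of the 10 genes, in 6 sequences, were in the table. A match is a run of letters and not a measured site.

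Levels below are log2 of the spot's processed intensity relative to the 75th percentile of its own array, so 0 is that percentile. Between 59.6% and 65.1% of the spots other than controls were well above background, no spot was saturated, and pairs of arrays correlated at r of 0.92 to 0.99 over probes. All arthritis arrays shared slide 1 (scan 1) with triptolide 1, while triptolide 2 and 3 were on slide 2 (scan 2), so most of the slide effect cannot be told apart from treatment. Arthritis 2 stood apart in skeletal muscle markers, of which 14 of 16 were tested and 4 were above background on every array. Their mean level, relative to its mean over the arrays, was 8.52 there, against -4.24 and -4.48 on arthritis 1 and 3 and -2.80 to 1.88 with triptolide. Triptolide 2 was highest in markers of peripheral nerve (2.50) and of smooth muscle (2.45). Of the synovial fibroblast markers, 12 of 12 were above background on every array, and of 16 osteoblast and osteocyte markers 9 were tested and 7 were above background on every array (Runx2, Spp1, Dlx5, Col1a1, Omd, Pth1r and Ifitm5). Bglap and Dmp1 were above it on 5 arrays each, Alpl and Mepe on 2 at most, and Sp7, Ibsp, Sost and Phex on 0. Groups are compared with limma over 25777 probes, those well above background on at least 3 of 6 arrays, with Benjamini-Hochberg adjustment over all of them.

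The probes of the resorption genes Acp5, Ctsk and Atp6v0d2 lay far above the 75th percentile on every array, and no difference between triptolide and saline was detected for them, while the RANKL probe was close to background. Acp5, Ctsk, Atp6v0d2, Dcstamp and Tnfrsf11b passed the filter on low signal, and Calcr and Tnfsf11 did not. None of the 5 tested genes passed an adjusted p of 0.05, and 0 did at an unadjusted p of 0.05, where 0% and 3.24% (2.01% higher and 1.23% lower) of all tested probes did. For all 5 the arrays of the groups overlapped, where 8.64% of all tested probes had groups that did not (4.77% higher and 3.87% lower). Means were higher with triptolide for 3 and lower for 2, with a median log2 difference of 0.077, against 53.9% higher and a median of 0.023 over all tested probes.

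Acp5 encodes tartrate-resistant acid phosphatase, the enzyme by which osteoclasts are stained. Its log2 level was 5.66, 4.57 and 5.48 on arthritis arrays 1 to 3 and 5.47, 4.87 and 5.60 on triptolide arrays 1 to 3. Replicate 2 was the lowest array in each group, and the groups overlapped throughout their ranges. The means were 5.24 ± 0.58 (SD, n = 3) and 5.31 ± 0.39 (SD, n = 3). The log2 difference, triptolide minus arthritis, was 0.077 (SE 0.35) with an adjusted p of 0.995 by limma. Its 95% interval runs from 0.590-fold to 1.89-fold, so a change of up to nearly that size either way was not excluded.

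Ctsk encodes cathepsin K, the protease that cuts bone collagen. Its level was 5.84, 4.99 and 5.55 with saline and 5.42, 5.67 and 5.61 with triptolide. The 3 triptolide arrays lay within the range of the arthritis arrays, whose spread came mainly from arthritis 2. The means were 5.46 ± 0.43 (SD, n = 3) and 5.57 ± 0.13 (SD, n = 3), a log2 difference of 0.11 (SE 0.24; limma, adjusted p = 0.994). The interval of the fold was 0.717 to 1.62.

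Atp6v0d2 encodes a subunit of the proton pump of the vacuolar type and is also needed for fusion of osteoclast precursors in mice. Its level was 4.13, 3.08 and 3.79 with saline and 3.51, 3.80 and 4.0 with triptolide. As for Ctsk, the highest array was arthritis 1 and the lowest arthritis 2, with the triptolide arrays between them. The log2 difference was 0.10 (SE 0.30; limma, adjusted p = 0.995), and the interval of the fold was 0.648 to 1.78.

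Dcstamp encodes the membrane protein DC-STAMP, which osteoclast precursors need in order to fuse. Its level was 0.69, 0.11 and 0.34 with saline and -0.36, 0.44 and 0.12 with triptolide. Triptolide 1 was the lowest of the 6 arrays, and the other two triptolide arrays lay inside the arthritis range. The means were 0.38 ± 0.29 (SD, n = 3) and 0.069 ± 0.40 (SD, n = 3), a log2 difference of -0.31 (SE 0.26; limma, adjusted p = 0.994). This was the largest difference in size among the 5, and 25.3% of all tested probes had a smaller p. The interval of the fold was 0.519 to 1.25.

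Tnfrsf11b, the decoy receptor, had levels of 0.65, 0.67 and 0.90 with saline and 1.05, 0.32 and 0.30 with triptolide. The arthritis arrays lay close together, while triptolide 1 was above all of them and triptolide 2 and 3, on the other slide, below all of them. The log2 difference was -0.19 (SE 0.25; limma, adjusted p = 0.994), with a fold interval of 0.581 to 1.33.

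**Figure D1:**
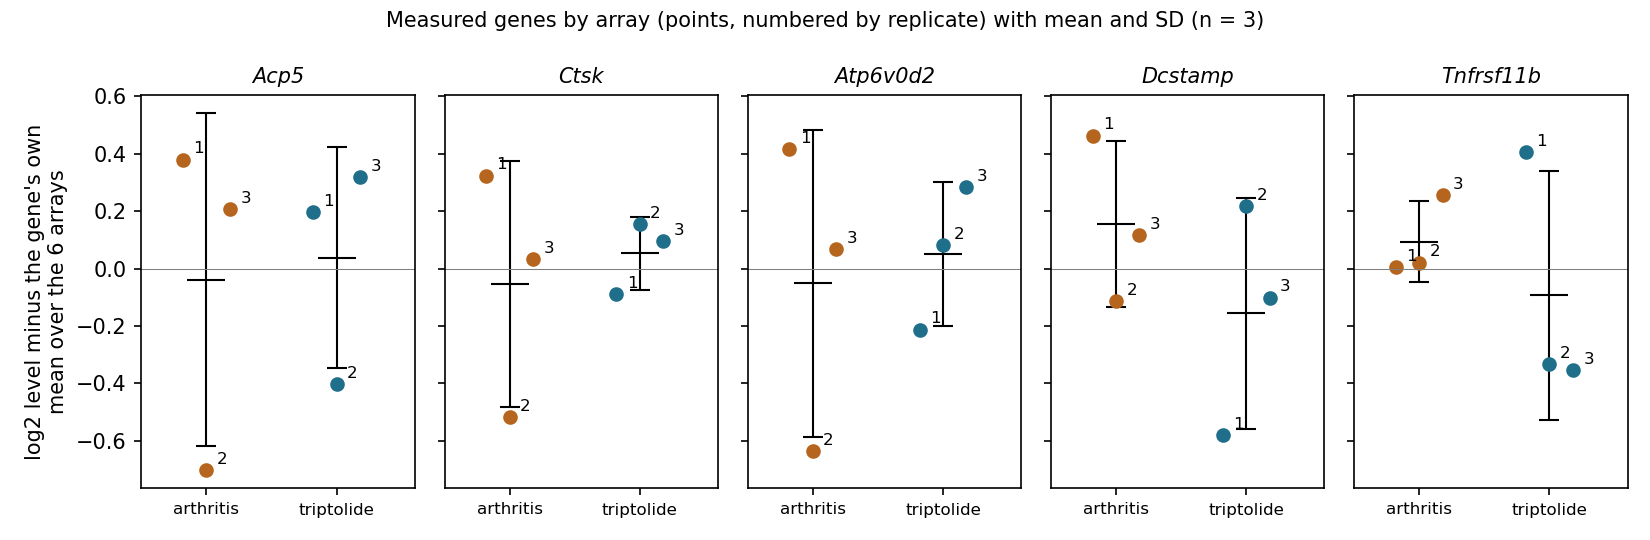
Log2 level of each of the 5 tested genes minus its own mean over the 6 arrays (y axis), by group (x axis). Points are arrays numbered by replicate, and the bars are the mean and SD (n = 3). The groups overlap for every gene, and arthritis 2 is the lowest point for Acp5, Ctsk and Atp6v0d2.

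RANKL was close to background. The Tnfsf11 spot had an intensity of 17, 2.46 and 2.21 on the arthritis arrays and 7.68, 3.42 and 3.32 on the triptolide arrays, and was well above background on arthritis 1 alone. The log2 levels were -4.05, -6.90 and -7.18 with saline and -5.14, -6.64 and -7.07 with triptolide. Because only arthritis 1 was well above background, no fold is given, and the gene was not tested in the fit. The ratio of ligand to decoy receptor is the usual summary of this pathway, but both probes were well above background on 1 of 6 arrays, so it was not compared between the groups.

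Calcr encodes the calcitonin receptor, through which the hormone calcitonin halts resorption. The probe annotated to both variants had intensities of 7.64, 21.6 and 14.0 with saline and 4.17, 3.91 and 7.28 with triptolide, and was well above background on arthritis 2 alone. The 3 arthritis arrays were all brighter than the 3 triptolide arrays, where 3.87% of all tested probes had groups apart in that direction. The mean level was -4.49 in arthritis against a triptolide floor of -4.63, a ratio of 1.10-fold. This is not a lower bound on the difference, since arthritis 1 and 3 were not well above background. The probe was not tested in the fit. The floor takes, on each array, the higher of the probe's own level and the lowest level of any probe well above background. The variant 1b probe was not well above background on any array. A further probe, outside the rule because it is named on the array by its accession, shares its gene ID with Oscar, which encodes an osteoclast receptor that costimulates RANK signalling. Its log2 level ranged from -6.83 to -6.63 with saline and from -6.90 to -6.33 with triptolide, and it was not well above background on any array.

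**Figure D2:**
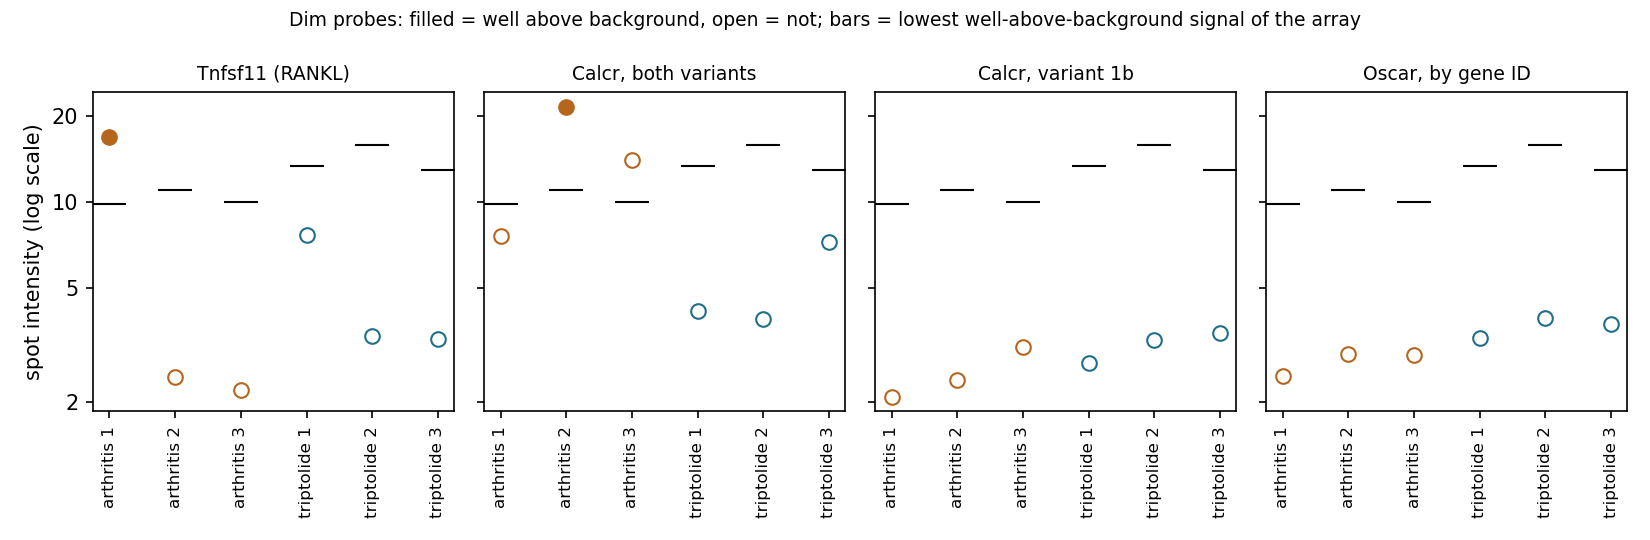
Spot intensity on a log scale (y axis) for the probes that did not pass the filter, by array (x axis). Filled points are well above background, open points are not, and the bars mark the lowest intensity of any probe well above background on that array. Tnfsf11 is filled on arthritis 1 and the Calcr probe of both variants on arthritis 2, and the other points are open.

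Genes that act upstream in osteoclast formation were taken from a list of 37, of which 34 had a probe on the array and 33 were tested. None passed an adjusted or an unadjusted p of 0.05. Means were higher with triptolide for 28 and lower for 5, with a median log2 difference of 0.19, against 53.9% higher over all tested probes. Without arthritis 2 the number higher was 17 of 33 and the median 0.016, against 45.7% higher and a median of -0.022 over all tested probes. Levels of this list were lowest on arthritis 2 (-0.33 relative to its mean over the arrays) and triptolide 2 (-0.24). The macrophage list moved with them, at -0.69 on each of these arrays against 0.14 to 0.53 on the rest. Of its markers 11 of 12 were tested, and Marco was not above background on any array. The T and NK cell list, at -0.76 on arthritis 2 and -0.84 on triptolide 2, was also lowest there. So was the synovial fibroblast list, at -0.44 and -0.68. The part of these lists in the result was not tested. Csf1r is in both the upstream and the macrophage list. In bulk tissue, fewer cells of a type and less RNA per cell cannot be told apart.

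Among the ligands and receptors, Csf1, the growth factor of macrophages, differed by 0.061 (SE 0.25) and its receptor gene Csf1r by 0.19 (SE 0.34) on the log2 scale. Traf6, the adaptor of RANK, differed by 0.062 (SE 0.13), with the 6 arrays between -0.42 and -0.29, a range wider in 99.7% of all tested probes. Il1b, a cytokine that promotes resorption, was at 0.95, 0.73 and 1.95 with saline and 2.52, 0.76 and 2.14 with triptolide, a difference of 0.60 (SE 0.54), and of 0.24 without triptolide 1 or 1.12 without triptolide 2. The cytokine genes Tnf and Il6 were well above background on 4 arrays each and differed by 0.55 (SE 0.79) and 0.23 (SE 0.47). Without triptolide 1 these became -0.20 and -0.25, and within slide 1, where triptolide 1 is the lone treated array, 2.04 and 1.20. Il17a was not well above background on any array. With all 6 arrays, the groups overlapped for every tested gene of this paragraph. On the smaller sets of arrays given here, they did not overlap for Il1b without triptolide 2, or for Tnf and Il6 within slide 1. Within slide 1 this means only that triptolide 1 lay above the arthritis arrays. Fewer arrays separate more easily, and the share of all tested probes apart on these sets was not counted.

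Among the intracellular members, Fos, the AP-1 subunit that osteoclast precursors need to differentiate, was at 1.32, 0.74 and 1.55 with saline and 0.46, 0.012 and 0.95 with triptolide. The groups overlapped, since triptolide 3 lay above arthritis 2. The log2 difference was -0.73 (SE 0.32; limma, unadjusted p = 0.058, adjusted p = 0.994). Its partner Jun differed by -0.33 (SE 0.24) and Bcl6, a repressor of osteoclast genes, by -0.64 (SE 0.39), with a second Bcl6 probe at -0.70. Both genes were highest on arthritis 2, where muscle markers peaked, at 4.45 against 3.54 to 3.75 elsewhere for Jun and 4.78 against 2.98 to 3.72 for Bcl6. The second Bcl6 probe was likewise highest there, at 0.042 against -1.80 to -0.77. Without arthritis 2 the differences were -0.077 for Jun and -0.22 for Bcl6. With the mean of the muscle markers as a covariate they were -0.33 and -0.65. That mean differed between the groups by only 0.13, so the covariate could hardly move either difference. The part of muscle in them was not tested. The NF-kB subunit genes Nfkb2 and Rela differed by 0.39 (SE 0.22) and 0.31 (SE 0.18). Plcg2, a phospholipase in costimulatory signalling, differed by 0.40 (SE 0.32) and Mitf by 0.25 (SE 0.23). Without arthritis 2 they were 0.24 for Nfkb2, 0.17 for Rela, 0.18 for Plcg2 and 0.12 for Mitf. The groups overlapped for all of these on the probe given first. A second Nfkb2 probe had groups that did not overlap, at a log2 difference of 0.44 (SE 0.22). Of all tested probes, 4.77% had groups apart in that direction. A second Rela probe differed by 0.21 (SE 0.18), with overlapping groups.

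Genes of fusion, attachment and resorption were taken from a list of 27, with 24 on the array and 22 tested, and none passed an adjusted or unadjusted p of 0.05. Means were higher with triptolide for 17 and lower for 5, against 53.9% higher over all tested probes. The median log2 difference was 0.12, falling to 0.023 without arthritis 2, where that of all tested probes was -0.022. The groups did not overlap for 2 of the 22, Tcirg1 and Mmp9, both higher with triptolide, where 4.77% of all tested probes had groups apart in that direction. Tcirg1 encodes the subunit of the proton pump in the ruffled membrane of osteoclasts. Its level was 6.64, 6.02 and 6.68 with saline and 7.29, 6.74 and 7.09 with triptolide, so the lowest triptolide array was just above the highest arthritis array. The log2 difference was 0.60 (SE 0.25; limma, unadjusted p = 0.053, adjusted p = 0.994). Mmp9, a gelatinase, was at 0.69, -0.12 and 0.68 with saline and 0.92, 0.71 and 1.38 with triptolide, a log2 difference of 0.59 (SE 0.30; limma, unadjusted p = 0.091, adjusted p = 0.994). Without arthritis 2, the lowest array for both genes, the differences were 0.38 for Tcirg1 and 0.32 for Mmp9.

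The other named members of this list had overlapping groups. Ostm1 and Clcn7, which together form the chloride exchanger of the ruffled border, differed by 0.31 (SE 0.20) and 0.22 (SE 0.25) on the log2 scale, and by 0.13 and 0.013 without arthritis 2. Car2, the carbonic anhydrase that supplies protons, differed by 0.095 (SE 0.43). The membrane protease genes Mmp14 and Adam8 differed by -0.14 (SE 0.28) and -0.081 (SE 0.26). Sh3pxd2a, a scaffold of podosomes, differed by -0.15 (SE 0.49). Its second probe had groups that did not overlap, lower with triptolide at a log2 difference of -0.37 (SE 0.17). Of all tested probes, 3.87% had groups apart in that direction. Itgb3, the integrin subunit by which osteoclasts attach, was well above background on 2 arrays at most and was not tested.

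**Figure D3:**
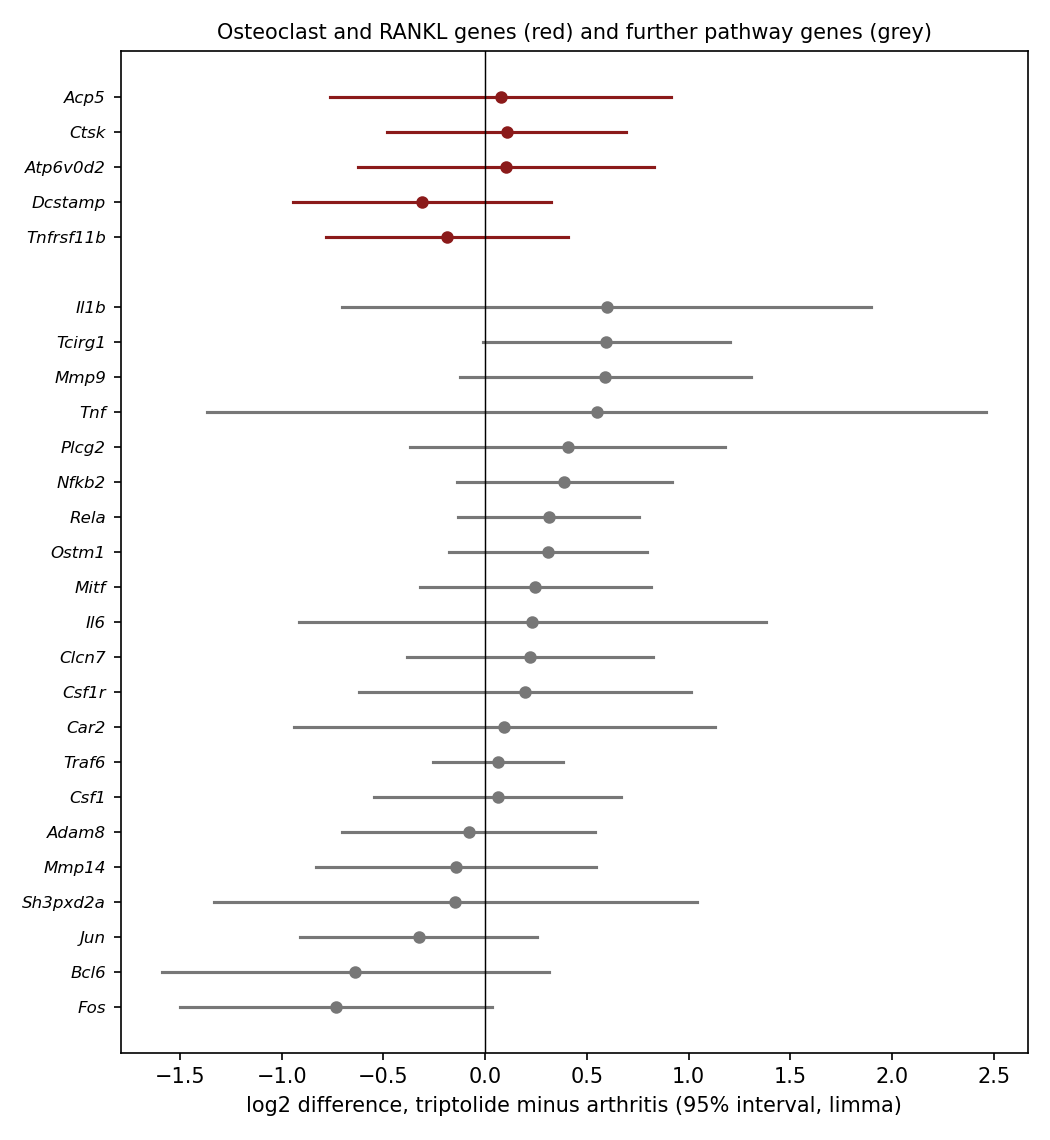
Log2 difference, triptolide minus arthritis (x axis), for the 5 tested osteoclast and RANKL genes (red) and the named genes of the pathway lists (grey), with 95% intervals from limma (n = 3 per group). Every interval crosses 0, those of Tcirg1 and Fos by the least.

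Among the arrays, arthritis 1 was the highest for Acp5, Ctsk, Atp6v0d2 and Dcstamp, and arthritis 2 the lowest for the first 3 of these. The highest and lowest arrays differed by 1.08 for Acp5, 1.05 for Atp6v0d2, 1.04 for Dcstamp, 0.84 for Ctsk and 0.76 for Tnfrsf11b on the log2 scale. Between 29.8% and 50.3% of all tested probes had a wider range. Over the 6 arrays, Ctsk and Atp6v0d2 correlated at a Pearson r of 0.96, Acp5 and Atp6v0d2 at 0.76, and Tnfrsf11b with these 3 at -0.36 to 0.21. These are descriptions of 6 arrays that share tissue makeup and scaling. The genes most like Ctsk among 11748 candidates were Oaf, P2rx7 and Tanc2 (Pearson r of 0.992 to 0.997), and those most like Acp5 were E2f1, Stk38 and Wdr5 (0.996 to 0.998). P2rx7 was dim, at -5.42 to -4.24. On arthritis 2 and on triptolide 1 and 2 it lay below every probe that was well above background. With so few arrays, 335 candidates reached an r of 0.9 with Ctsk and 859 with Acp5.

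**Figure D4:**
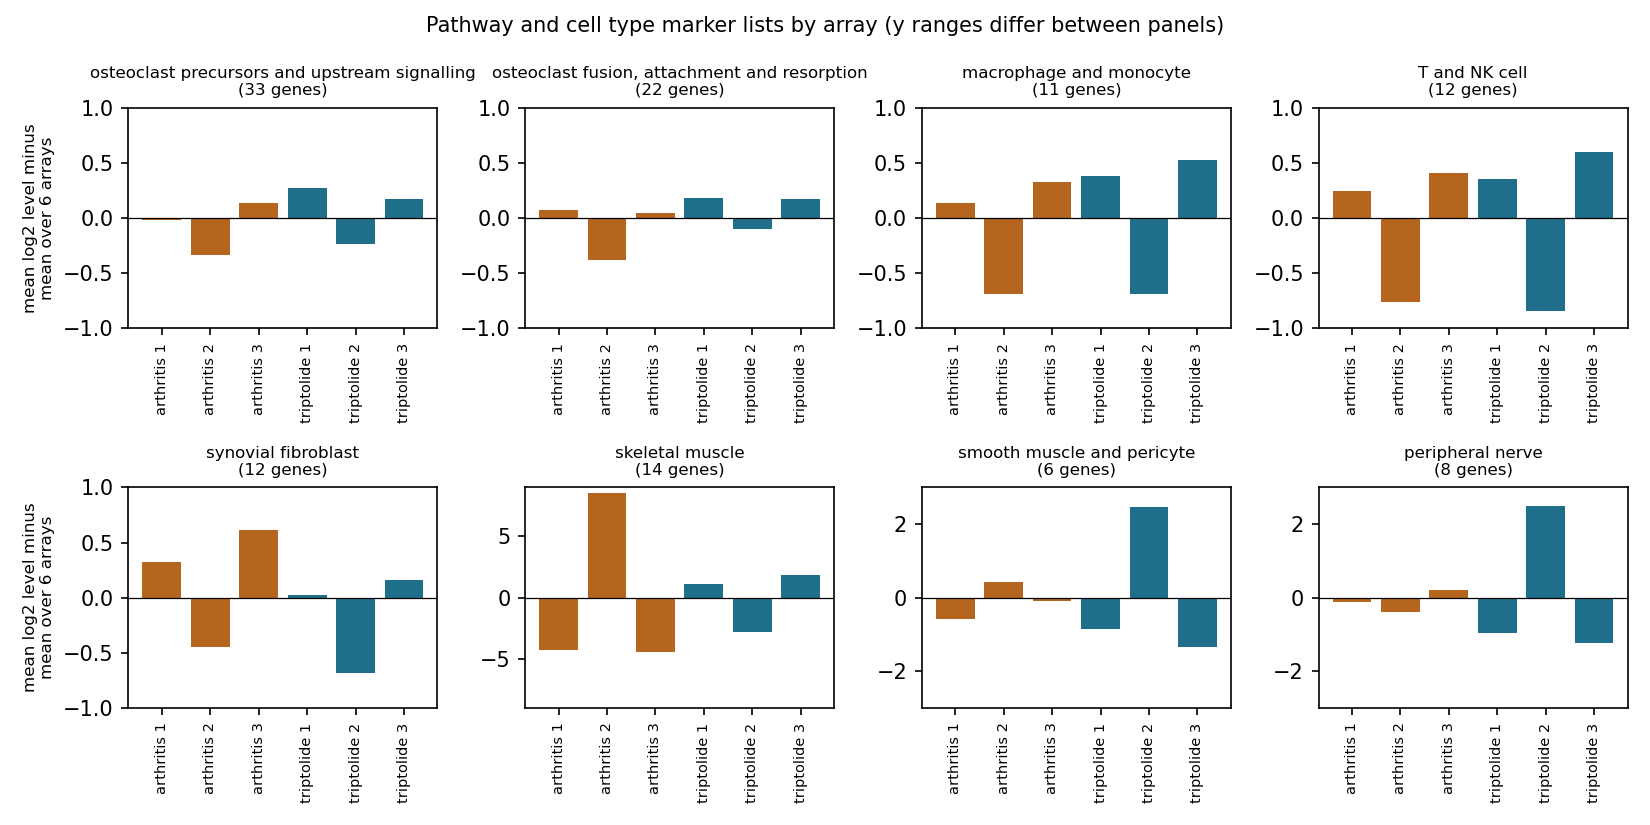
Mean log2 level of each list minus its mean over the 6 arrays (y axis, ranges differ between panels), by array (x axis, arthritis brown, triptolide blue). Skeletal muscle markers are highest on arthritis 2 at 8.52. The macrophage, T cell, synovial fibroblast and pathway lists are lowest on arthritis 2 and triptolide 2.

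The small differences of the resorption genes changed direction with single arrays. Without arthritis 2, all 5 tested genes were lower with triptolide, with Acp5 at -0.25, Atp6v0d2 at -0.19 and Ctsk at -0.12 on the log2 scale. Over all tested probes, 45.7% were then higher with triptolide, with a median of -0.022. Within slide 1, which leaves triptolide 1 as the lone treated array, Atp6v0d2 stood at -0.16, Ctsk at -0.035 and Tnfrsf11b at 0.31. With the mean of the macrophage markers as a covariate, Acp5 stood at -0.034 and the other 4 kept their direction. Dcstamp was lower with triptolide under all 19 alternatives, which draw on the same arrays, and its lowest adjusted p was 0.446. Its difference ran from -0.74 within slide 1 to -0.098 without triptolide 1. Several pathway genes, among them Fos, Jun, Tcirg1 and Mmp9, also kept their direction under all 19. The share of all tested probes that did so was not counted.

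**Figure D5:**
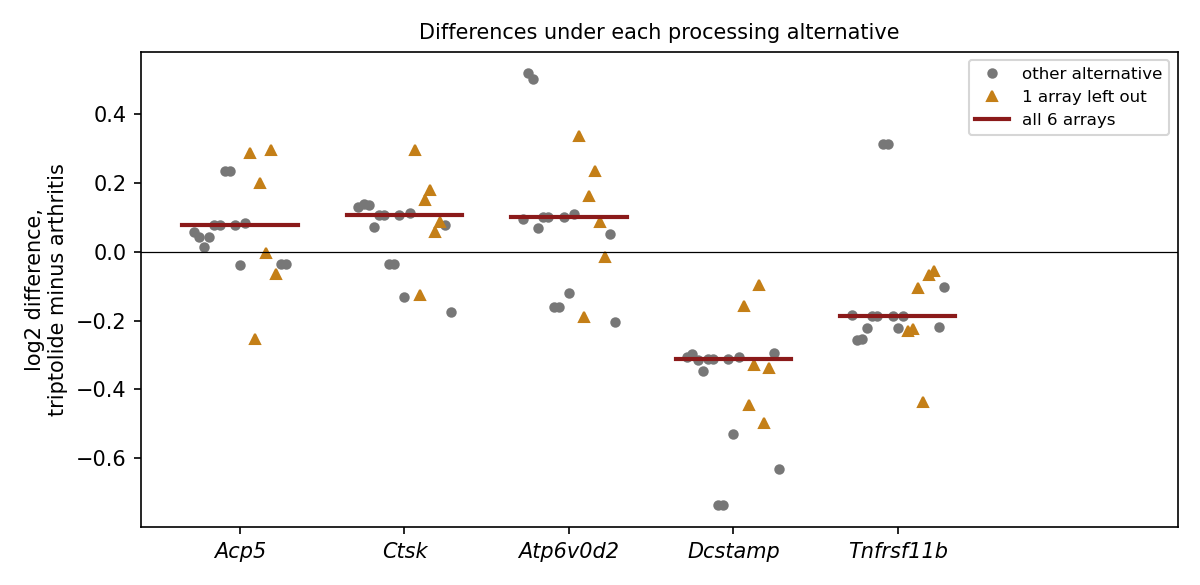
Log2 difference, triptolide minus arthritis (y axis), of each tested gene (x axis) with all 6 arrays (red line) and under each alternative (points, triangles where 1 array was left out). Points of Acp5, Ctsk, Atp6v0d2 and Tnfrsf11b fall on both sides of 0, and all those of Dcstamp lie below it.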

How the data were processed

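Gene expression was measured on 6 arrays of 1 colour. The authors deposited scanner files with spot intensity on a linear scale, background-subtracted and detrended within the array per the file headers, and not normalized across arrays. The headers name Agilent Feature Extraction 10.7.3.1 and build rn4, while the submitters' processing notes name 9.1. A deposited table of log2 values has 167 rows and holds 0 of the probes studied here. Controls and outlier spots were left out, log2 intensity was taken, and each array's 75th percentile was subtracted. The brightest probe stands for a gene. Probes were named by accession (18339), symbol (3013) or synonym (394) through the RefSeq table, and 19266 kept the file's name. The comparison used lmFit and eBayes of limma 3.58.1 under R 4.3.3 (Benjamini-Hochberg over all tested probes). It was tested on simulated data in which each probe's spread was capped at the median spread. The simulation was therefore quieter than these data for the noisier probes, and does not show what the fit can detect here. The number of arrays, 3 per group, limits the precision.

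Members and lists were chosen with earlier results of these data known, and 1 marker gene of a list is not reported here. Named genes are all members, up to 3 tested genes of each pathway list with the smallest unadjusted p in each direction, and a fixed set of 14 pathway genes. The alternatives were other backgrounds, scalings and filters, slide and replicate blocks, array weights, marker covariates and leaving out arrays.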

Additional observations from a re-analysis of the deposited data

How the results depend on the processing

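Members called numbered 0 under all 19 alternatives, 2 of which (macrophage markers as a covariate, and arthritis 1 and 3 against triptolide 1 and 3) were chosen after seeing the data, as were the alternatives for pathway genes. Probes called numbered 0 under all but the latter, with 24. Slide as a block, which gives the same values as slide 1 alone, turned the sign of Atp6v0d2 (-0.16), Ctsk (-0.035) and Tnfrsf11b (0.31), and moved Tnf to 2.04, Il1b to 1.31, Il6 to 1.20, Plcg2 to 0.76, Mitf to 0.53, Nfkb2 to 0.60, Clcn7 to 0.39, Adam8 to -0.39 and Sh3pxd2a to -0.59. Array weights turned Acp5 (-0.039), Atp6v0d2 (-0.12) and Ctsk (-0.13), and 2 arrays per group turned Acp5 (-0.035), Atp6v0d2 (-0.21) and Ctsk (-0.18). The macrophage covariate turned Acp5 (-0.034), Csf1 (-0.017) and Sh3pxd2a (0.024). Background correction by normexp moved Atp6v0d2 to 0.52, turned Il6 (-0.093), moved Ostm1 to 0.70 (limma, unadjusted p = 0.0050), Rela to 0.50, Bcl6 to -0.23 and Tnf to 0.11, and took the share of probes with a higher mean from 53.9% to 42.6%. Of the 21 named pathway genes, 20 moved by over 1.5 times or changed sign under at least 1 alternative, Fos being the exception, and none passed an adjusted p of 0.05. The cause was not tested. The planned ratio of Tnfsf11 to Tnfrsf11b was not compared under any setting, since the ligand was not well above background on 5 of 6 arrays.

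With 1 array left out, log2 differences ran from -0.25 to 0.30 for Acp5, -0.19 to 0.33 for Atp6v0d2, -0.12 to 0.30 for Ctsk, -0.50 to -0.098 for Dcstamp and -0.44 to -0.057 for Tnfrsf11b. Those of pathway genes that turned ran from -0.12 to 0.24 for Csf1, -0.051 to 0.47 for Csf1r, -0.20 to 1.43 for Tnf, -0.25 to 0.55 for Il6, -0.44 to 0.0083 for Mmp14, -0.28 to 0.50 for Car2, -0.31 to 0.072 for Adam8 and -0.68 to 0.17 for Sh3pxd2a. Of those that did not, Bcl6 ran from -0.95 to -0.22, Jun from -0.47 to -0.077, Il1b from 0.24 to 1.12, Ostm1 from 0.13 to 0.42 and Fos from -0.97 to -0.50. Genes with a higher mean numbered 17 to 28 upstream and 13 to 21 in resorption.

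Replicate numbers are shared by the groups, and the deviations of same-numbered arrays correlated at -0.16, -0.13 and 0.00083. With so few arrays per group, these correlations cannot settle whether the numbers pair the samples. Acp5 and the macrophage list were lowest on replicate 2 in both groups. Ctsk was lowest on arthritis 2 but, within its group, highest on triptolide 2. With the replicate block, 0 probes and 0 members were called, and Dcstamp differed by -0.31 (limma, adjusted p = 0.912). Fos differed by -0.73 (SE 0.14; limma, unadjusted p = 0.0065, adjusted p = 0.911). The SE of Acp5 was 0.16 with the block against 0.35 without it, and that of Dcstamp 0.31 against 0.26.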
